A study of Homo sapiens with 4 samples.

Results

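The endothelin system consists of the genes for the 3 endothelin peptides (EDN1, EDN2 and EDN3), their 2 receptors (EDNRA and EDNRB) and the 2 endothelin-converting enzymes (ECE1 and ECE2). The genes are the named members of this pathway, a pathway picked with earlier results of these data known, and all 7 of 7 were found, each with 1 probe set, among the 19555 named genes of the array. They were measured with Affymetrix Human Gene ST arrays, which probe whole transcripts, in the established human glioma line U87MG. One group was a clone (Klon28 in the sample names) that carried the wild-type form of CD13/APN, membrane alanyl-aminopeptidase, the product of ANPEP, with 2 samples. The other was a clone (Klon25) that carried the L243P form, called inactive in the labels, also with 2 samples. The construct names of both groups include EGFP, untransfected U87MG cells are not a group here, and growth was described as comparable. Replicates came from separate experiments. Each form is represented by 1 clone, so form and clone cannot be told apart, and the p-values reflect only how separate experiments with the same clone varied.

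Endothelins are made as long precursors. A furin-like convertase releases an inactive intermediate, big endothelin, and a membrane-bound zinc metalloprotease of the endothelin-converting enzyme family cuts it to the short active peptide. The peptides act through G protein-coupled receptors on contraction, calcium release and cell growth. The type A receptor prefers endothelin 1 and endothelin 2, whereas the type B receptor binds all of them about equally. Endothelin 1 is known chiefly from endothelium, where it constricts vessels, and astrocytes and gliomas can make and sense endothelins too. Like ECE1, APN is a zinc peptidase at the cell surface, but of another family.

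The EDN1 promoter is the best studied of the system. Its window is shown because its letters match short motifs of some transcription factors whose genes are in a list described below. The windows of ECE1, the brightest member, and of the 2 dim receptor genes are shown beside it. Each sequence is 1 RefSeq window of the GRCh38.p14 assembly, 250 bases before to 50 bases after a gene start, written 5′ to 3′ on the gene's strand. Motifs were searched on both strands. For the TATA box the letters were TATAAA. For AP-1 they were TGANTCA, and also the variant TGACTAA. For factors of the GATA family AGATAA was used. For the core of the hypoxia response element, ACGTG was searched as well as the variant GCGTG, which differs from it in the first letter, so that no base can start both. Capitals mark matches on either strand. Where a gene had several starts, the window with the most matches was taken, except for ECE1, for which the outermost start is shown.
EDN1, chr6:12290111-12290410, plus strand: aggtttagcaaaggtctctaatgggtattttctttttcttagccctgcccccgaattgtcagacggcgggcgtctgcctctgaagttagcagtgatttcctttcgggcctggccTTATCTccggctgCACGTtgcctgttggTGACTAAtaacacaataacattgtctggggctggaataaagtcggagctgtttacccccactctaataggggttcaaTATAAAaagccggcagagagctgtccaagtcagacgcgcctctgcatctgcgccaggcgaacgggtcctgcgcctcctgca
ECE1, chr1:21345455-21345754, minus strand: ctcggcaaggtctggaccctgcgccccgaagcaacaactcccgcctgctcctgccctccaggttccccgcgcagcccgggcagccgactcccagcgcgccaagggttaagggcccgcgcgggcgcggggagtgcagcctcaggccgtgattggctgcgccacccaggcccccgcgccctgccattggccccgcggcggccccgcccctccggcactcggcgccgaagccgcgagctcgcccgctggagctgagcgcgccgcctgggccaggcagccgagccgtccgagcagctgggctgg
EDNRA, chr4:147480847-147481146, plus strand: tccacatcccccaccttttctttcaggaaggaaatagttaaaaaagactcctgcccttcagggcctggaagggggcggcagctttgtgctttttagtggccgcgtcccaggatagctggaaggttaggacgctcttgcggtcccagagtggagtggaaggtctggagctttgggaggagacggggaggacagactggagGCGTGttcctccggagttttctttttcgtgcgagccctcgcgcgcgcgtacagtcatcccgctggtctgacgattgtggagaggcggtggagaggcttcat
EDNRB, chr13:77918782-77919081, minus strand: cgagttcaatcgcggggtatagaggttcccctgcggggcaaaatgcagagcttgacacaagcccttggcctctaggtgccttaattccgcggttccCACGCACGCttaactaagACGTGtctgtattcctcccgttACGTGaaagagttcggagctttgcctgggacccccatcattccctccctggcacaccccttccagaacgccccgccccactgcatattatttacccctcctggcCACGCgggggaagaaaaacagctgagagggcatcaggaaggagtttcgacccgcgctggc

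The EDN1 window held 4 matches. These were TATAAA starting 31 bases before the gene start, TGACTAA starting 108 bases before it, AGATAA on the opposite strand starting 136 bases before it and ACGTG on the opposite strand starting 123 bases before it. Among all 35116 RefSeq windows of this length, TATAAA was in 11.5%, TGANTCA in 7.71%, TGACTAA in 1.9%, AGATAA in 10.3%, ACGTG in 21.4% and GCGTG in 36.5%. The EDNRB window held 5 matches, all to the hypoxia cores, and the EDNRA window held 1, to GCGTG. The ECE1 window shown held 0 of them and was rich in G and C (77.3%, against a median of 58.7% over all windows). The other 3 windows of ECE1 held 0, 1 and 2 matches, with a G and C content of 70.3%, 80.0% and 47.7%, so the count depends on the window taken. A window was listed for 5 of the 7 genes, with 11 windows in all. These matches describe the letters in a window and say nothing of binding in these cells.

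No member of the endothelin system differed between the clones past the test. With limma and Benjamini-Hochberg adjustment over all rows, 0 of 7 members were called at an adjusted p under 0.05, against 0.967% of all 19555 genes (0.43% higher and 0.537% lower in L243P), and 1 member (ECE1) was under an unadjusted p of 0.05, against 13.5% of all genes. With the default limma prior 0 of the 7 and 0 of all genes were called. The median log2 change of L243P over wild type was -0.04 over the members and -0.02 over all genes, and the median size of the change was 0.10 and 0.12. In 2 members (EDN1 and ECE1) both L243P samples were below both wild-type samples, which also held for 20.9% of all genes. In 0 members were both above, against 17% of all genes. The 95% intervals of the 7 log2 changes lay between -0.66 and 0.47, so a signal change of 1 on the log2 scale was outside each of them. These intervals depend on the prior of the fit (trend and robust). For the dim genes EDNRA, EDNRB and EDN1 they describe the signal, and a larger change of the transcript may not show in it. All values below are normalized intensities on a linear scale, with n = 2 samples per group, and all changes are log2 ratios, L243P over wild type, with their standard error (SE) from limma.

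**Figure D1:**
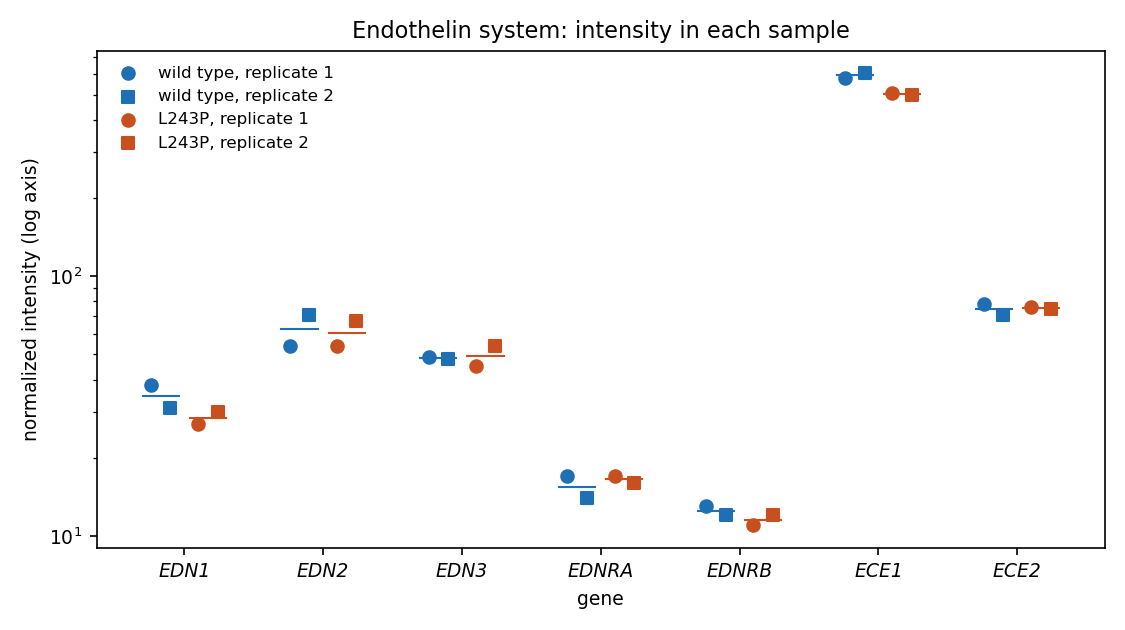
Normalized intensity (log axis) of the 7 endothelin system genes in each of the 4 samples. Points are samples, with circles for replicate 1 and squares for replicate 2, and short lines are group means. The L243P samples of ECE1 (509 and 499) lie below the wild-type samples (582 and 604).

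Among the ligands, EDN1, which encodes the vasoconstrictor and growth-promoting peptide endothelin 1, had intensities of 38 and 31 in wild-type replicates 1 and 2, and of 27 and 30 in L243P replicates 1 and 2. Both L243P samples were lower, but the closest samples of the groups were 1 unit apart, which is the rounding step of the deposited values. The means were 34.5 ± 4.95 (SD) and 28.5 ± 2.12 (SD), with a log2 change of -0.27 (SE 0.16, 95% interval -0.66 to 0.12, limma adjusted p = 0.61). The difference between the wild-type replicates was -0.29 on the log2 scale (replicate 2 over replicate 1), as large as that between the clones. A log2 change at least as low as that of EDN1 was found in 9.56% of all genes.

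EDN2 encodes endothelin 2, which binds the receptors much as endothelin 1 does. Its intensities were 54 and 71 for wild type (replicates 1 and 2) and 54 and 67 for L243P. The groups overlapped almost fully, and in each clone replicate 2 was the brighter sample. Replicate 2 was above replicate 1 by 0.39 in the wild-type clone and by 0.31 in the L243P clone on the log2 scale, whereas the change between clones was -0.04 (SE 0.19, 95% interval -0.50 to 0.42, limma adjusted p = 0.99). EDN3 encodes endothelin 3, the ligand that guides neural crest cells through the type B receptor. It had intensities of 49 and 48 in the wild-type samples and 45 and 54 in the L243P samples. The wild-type samples lay between the L243P samples, and the log2 change was 0.02 (SE 0.15, 95% interval -0.33 to 0.38, limma adjusted p = 1).

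The receptor genes were the dimmest members. EDNRA, the type A receptor through which endothelin 1 contracts smooth muscle, had intensities of 17 and 14 in the wild-type samples and 17 and 16 in the L243P samples. EDNRB, the type B receptor, which also clears endothelin 1 and is found on astrocytes and melanocytes, had intensities of 13 and 12 in the wild-type samples and 11 and 12 in the L243P samples. In each of these genes a wild-type and an L243P sample had the same intensity. The log2 change was 0.10 for EDNRA (SE 0.15, 95% interval -0.27 to 0.47, limma adjusted p = 0.89) and -0.12 for EDNRB (SE 0.13, 95% interval -0.45 to 0.21, limma adjusted p = 0.84). The samples of each gene differed by at most 3 units, and intensities were deposited as whole numbers, so rounding is coarse at this level.

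ECE1 encodes the converting enzyme that acts on big endothelin 1 at the cell surface and in the secretory pathway, and it was the single bright member. Its intensities were 582 and 604 for wild type and 509 and 499 for L243P. The groups did not overlap, and the samples within a group lay close together. The means were 593.0 ± 15.6 (SD) and 504.0 ± 7.07 (SD), a fold of 0.85 with a 95% interval of 0.748 to 0.966. The log2 change of -0.23 (SE 0.075, 95% interval -0.42 to -0.05) had an unadjusted limma p of 0.0206 and did not pass after adjustment over all rows (adjusted p = 0.30). A change of this size in either direction was found in 22.9% of all genes, and one at least as low in 12.4%. ECE2, a related enzyme known to work at acidic pH, had intensities of 78 and 71 in the wild-type samples and 76 and 75 in the L243P samples. Both L243P samples lay between the wild-type samples, and the log2 change was 0.02 (SE 0.12, 95% interval -0.28 to 0.32, limma adjusted p = 1). RefSeq also lists a readthrough transcript of EEF1AKMT4 and ECE2, and the probe set was not assigned to either.

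**Figure D2:**
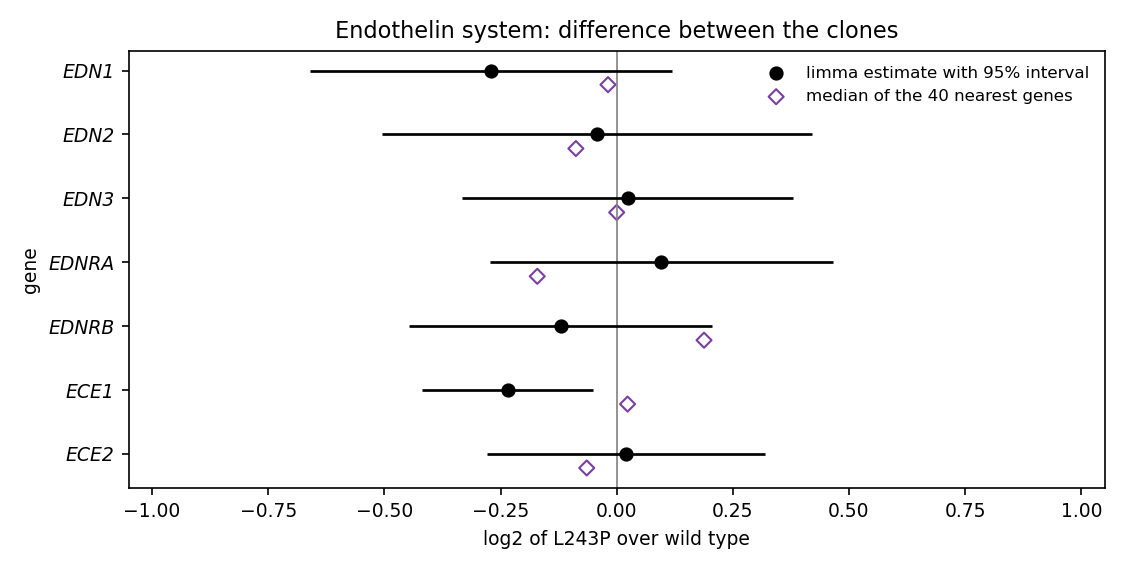
Log2 of L243P over wild type for each member (black points, limma estimates) with 95% intervals (lines). Open diamonds are the median change of the 40 nearest measured genes on the chromosome. The interval of ECE1 (-0.42 to -0.05) lies below 0, and those of the other 6 genes include 0.

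The place of each gene in the brightness order of an array was stable over the samples. The intensity of ECE1 was at least that of 92.0% to 93.5% of the 29085 probe sets of an array, and that of ECE2 was at least that of 58.6% to 60.6%. The ranges were 52.1% to 58.6% for EDN2, 49.7% to 52.1% for EDN3 and 38.7% to 44.1% for EDN1. They were 23.5% to 28.6% for EDNRA and 18.5% to 20.8% for EDNRB. Probe sets respond differently to the same amount of RNA, so these places describe the signals and do not order the transcripts by abundance. Detection calls were not used here. As a reference chosen after the values were seen, the 358 olfactory receptor genes of the array, which are not known for use in glioma cells, were ranked in the same way. EDNRB was at least as bright as 52.2% to 56.4% of them and EDNRA as 69.0% to 79.9%. EDN1 was at least as bright as 93.3% to 96.4%, EDN3 as 98.3% to 99.2% and EDN2 as 98.9% to 100%. ECE2 was at least as bright as 99.7% to 100% of them, and ECE1 as 100%. The 2 receptor signals thus lay well within the range of that reference. The signal of EDN1 lay near its 95th percentile, which was at an intensity of 31.1 (mean of the arrays). A change in either receptor or in EDN1 below this level may not be visible. In bulk samples, fewer cells with a transcript and less of it per cell cannot be told apart.

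By a rule based on the intensities in the 4 samples, the genes most like ECE1 were AP1M1, DNAJC11 and TMED9. The sum over the 4 arrays of the absolute log2 differences from ECE1 was 0.11 for AP1M1, 0.15 for DNAJC11 and 0.15 for TMED9, against a median of 11.5 over all other genes. AP1M1 had intensities of 580 and 579 in the wild-type samples and 497 and 502 in the L243P samples. It was not called (limma adjusted p = 0.33). This follows from the rule, since genes picked for nearly the same values give nearly the same fit.

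The members lie on 6 chromosomes, and the genes next to them differed in how they shifted. Around EDNRA on chromosome 4, 31 of the 40 nearest measured genes were lower in L243P, with a median log2 change of -0.17, and 0 of them were called. Only 1.78% of the genes with a known place had a neighbour shift at or below that of EDNRA. Around EDNRB on chromosome 13 the neighbours had a median of 0.19, with 24 higher and 15 lower. EDNRA itself was not lower, and EDNRB was not higher, but both signals were dim and may be unable to show such a shift. The neighbours of EDN1 on chromosome 6 had a median of -0.02, those of EDN3 on chromosome 20 of 0.00 and those of ECE2 on chromosome 3 of -0.06. Around EDN2 on chromosome 1 the median was -0.09, with 28 of 40 lower and 1 called (SLC2A1, a glucose transporter, lower by log2 -1.21, limma adjusted p = 0.036). The median around ECE1, on the same chromosome, was 0.02, so its value of -0.23 was not shared by its neighbours as a group. Of the 40 genes around ECE1, 1 was called (CAMK2N1, lower).

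The neighbour shift, built from medians taken in each array, was -0.18 around EDNRA, 0.13 around EDNRB and 0.03 around ECE1. It differs from the medians of the changes given above. After this shift was subtracted array by array, the log2 change was 0.27 for EDNRA (limma adjusted p = 0.61). The change was -0.25 for EDNRB (adjusted p = 0.58) and -0.27 for ECE1 (adjusted p = 0.34). The value of EDN2, also on chromosome 1, went from -0.04 to 0.04. No member was called on that scale. The dim signals of EDNRA and EDNRB may not follow a shift of their neighbours. Their subtracted values then hold in part the neighbour shift with its sign turned, and are not read as changes of these genes.

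**Figure D3:**
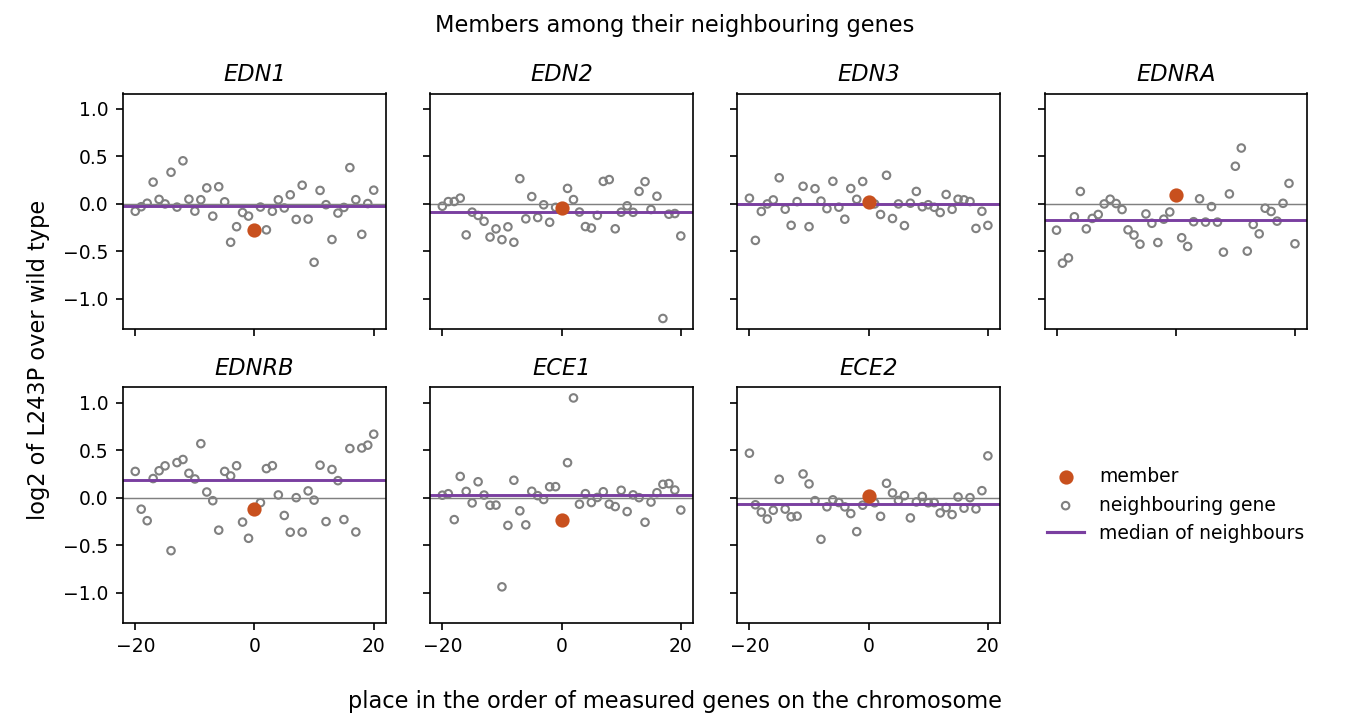
Log2 of L243P over wild type for each member (filled point, place 0) and for the 20 nearest measured genes on each side (open points), in the order of genes on the chromosome. The line is the median of the neighbours, -0.17 around EDNRA and 0.19 around EDNRB.

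The wider pathway was described with 5 lists of 77 measured genes out of 79. Of these, 2 were called higher and 1 lower in L243P, which is 3.9% against 0.967% of all genes. PCSK2 and ADM were known to differ when the lists were written, so this share is no evidence about the lists. The 3 calls were lost with the default limma prior, with the replicate block and without any one of the 4 arrays, settings in which 0 genes were called at all. Enzymes that release big endothelin belong to the proprotein convertases. Of the 6 measured, 1 was called higher, 0 lower, and the median log2 change was -0.06. FURIN, the convertase best known for this step, had intensities of 129 and 140 in the wild-type samples and 120 and 138 in the L243P samples, with overlapping groups and a log2 change of -0.06 (SE 0.12, limma adjusted p = 0.91). PCSK2, a convertase of neuroendocrine granules, rose from 64 and 48 to 360 and 274, with a log2 change of 2.50 (SE 0.19, limma adjusted p = 0.012), and of 2.29 to 2.71 without each array in turn. PCSK5, named after its values were seen, had intensities of 35 and 33 in the wild-type samples and 20 and 24 in the L243P samples (adjusted p = 0.18).

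Among 8 peptidases of endothelin turnover and of the family of the converting enzymes, 0 were called and the median log2 change was -0.19. Neprilysin (MME), which degrades endothelins and other peptides at the cell surface, had intensities of 1223 and 1234 in the wild-type samples and 1139 and 1052 in the L243P samples. Both L243P samples were lower, with a log2 change of -0.17 (SE 0.076, 95% interval -0.35 to 0.02, limma adjusted p = 0.49). The largest changes of the list were those of ECEL1, a relative of the converting enzymes, from 55 and 50 to 36 and 46, and of PHEX, a relative that acts in phosphate balance, from 72 and 57 to 54 and 48. Neither passed the test (limma adjusted p = 0.48 and 0.52). Without wild-type replicate 1 the median of the list was -0.05. ANPEP, the gene of the construct, had intensities of 8447 and 9103 in the wild-type samples and 6439 and 7122 in the L243P samples (limma adjusted p = 0.16). Its probe set does not separate the forms or the construct from the endogenous gene.

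Of 30 measured transducers and regulators of the endothelin receptors (among them G proteins, phospholipase C, inositol trisphosphate receptors, protein kinase C, arrestins and RGS proteins), 0 were called. Their median log2 change was 0.06. The groups did not overlap in 9 members that were higher in L243P (17% of all genes) and in 4 that were lower (20.9% of all genes). ITPR1, a calcium release channel of the endoplasmic reticulum, had intensities of 429 and 323 in the wild-type samples and 257 and 244 in the L243P samples, a log2 change of -0.57 (SE 0.14, limma adjusted p = 0.20), and of -0.78 to -0.37 without each array in turn. The value nearest 0 was that without wild-type replicate 1. Its relative ITPR2, named after its values were seen, had intensities of 86 and 91 in the wild-type samples and 125 and 117 in the L243P samples (adjusted p = 0.19). RGS4, which shortens signals of G proteins that couple to such receptors, had intensities of 105 and 114 in the wild-type samples and 147 and 155 in the L243P samples, a log2 change of 0.46 (SE 0.11, adjusted p = 0.17). The genes around RGS4 shifted by 0.25, and its log2 change was 0.21 when that shift was subtracted (adjusted p = 0.53).

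None of the 11 genes for transcription factors known to act on EDN1 (counting the co-activator EP300) was called. Their median log2 change was -0.08. In 6 of them both L243P samples were below both wild-type samples, and in 2 both were above (20.9% and 17% of all genes). HIF1A, the oxygen-regulated subunit of hypoxia-inducible factor, had intensities of 1721 and 1916 in the wild-type samples and 2705 and 2711 in the L243P samples, a log2 change of 0.58 (SE 0.081). It missed the threshold narrowly (limma adjusted p = 0.051) and passed when the dimmer 50% of the rows were left out or the arrays were centred on their medians (adjusted p = 0.017 and 0.018). It did not pass with the default prior (adjusted p = 0.26), with the replicate block (0.65), with the neighbour shift subtracted (0.053) or without each array in turn (0.18 to 0.45). Its partner ARNT had intensities of 362 and 391 in the wild-type samples and 469 and 453 in the L243P samples (adjusted p = 0.24). The genes around ARNT shifted by 0.32, and its log2 change went from 0.29 to -0.03 when that shift was subtracted.

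Endothelins are balanced in vessels by vasodilator systems, of which 22 genes were measured. The call went up for 1 and down for 1, 20 were not called, and the median log2 change was -0.04. ADM, which encodes the vasodilator peptide adrenomedullin, fell from 448 and 574 to 215 and 232, with a log2 change of -1.18 (SE 0.13, limma adjusted p = 0.035), and of -1.36 to -1.004 without each array in turn. GUCY1B1, the beta subunit of the nitric oxide receptor guanylate cyclase, rose from 255 and 210 to 463 and 431, with a log2 change of 0.95 (SE 0.12, limma adjusted p = 0.042), and of 0.81 to 1.09 without each array in turn. The gene of an alpha subunit, GUCY1A1, named after its values were seen, was at 18 and 17 in the wild-type samples and at 18 in both L243P samples. These signals lay near the 75th percentile of the olfactory receptor genes (16.4, mean of the arrays), so a change may not be visible.

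**Figure D4:**
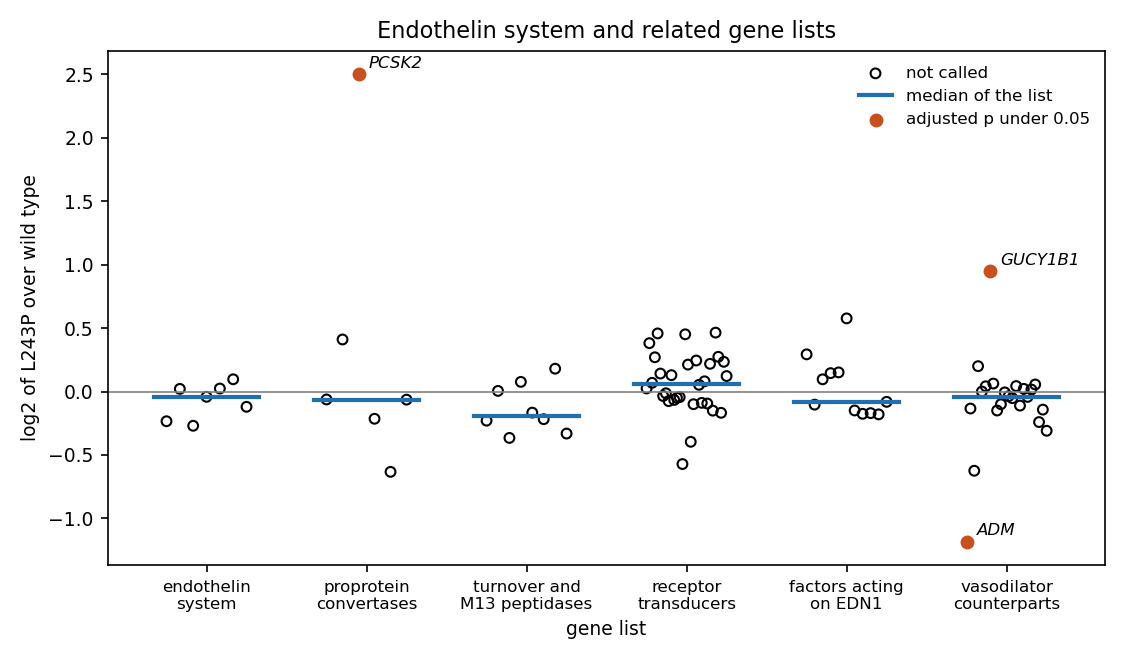
Log2 of L243P over wild type for the 7 members and for each measured gene of the 5 related lists. Filled points passed the test (PCSK2, GUCY1B1 and ADM), open points did not, and the bar is the median of a list.

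Markers of endothelium, the tissue best known for EDN1, were mostly dim in both clones. The brightest was CLDN5, with an intensity at least that of 57.1% to 59.4% of all probe sets, and the other measured ones lay below the middle. The summed intensity of the 7 measured markers (of 8 fixed) was 233 and 207 in the wild-type clone against 219 and 238 in the other, and 0 were called. The 7 melanocytic markers, fixed because melanocytes are known for EDNRB, summed to 214 and 205 in the wild-type clone against 194 and 220 in the other, with 0 called. The 7 macrophage markers summed to 2076 and 2017 in the wild-type clone against 2536 and 2714 in the other, and 0 were called. CD68, a lysosomal protein also made by other cells, gave nearly all of their sum. For the labelled cell type, the 7 measured markers of glioma lines and astroglia (of 8 fixed) summed to 8255 and 9976 in the wild-type clone against 9525 and 10550 in the other, and 0 were called. VIM (vimentin) and CD44 gave nearly all of that sum. Both were bright in all samples, at or above 99.8% and 98.5% of all probe sets. ALDH1L1 and the astrocyte genes S100B and AQP4 lay below the middle. NES (nestin) had intensities of 62 and 74 in the wild-type samples and 104 and 112 in the L243P samples (limma adjusted p = 0.12). SLC1A3, a glutamate transporter of astrocytes, had 87 and 86 in the wild-type samples and 122 and 133 in the L243P samples (adjusted p = 0.12). NES and SLC1A3 had the largest changes of the list. The log2 change was 0.20 for VIM, 0.12 for S100B, -0.11 for CD44 and -0.20 for AQP4, and the mean log2 intensity of ALDH1L1 was the same in both groups. GFAP was not analysed here. Correlations of log2 intensity between arrays were 0.993 and 0.995 within the groups and 0.990 to 0.991 across them.

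In the authors' deposited table, the signed fold of L243P over wild type was -1.2 for ECE1 and for EDN1. The p-values of the ratio test in the authors' deposited table were 0.217 for ECE1 and 0.605 for EDN1, and the analysis-of-variance p was 1 for all 7 members. The lowest proportion of false positives (pfp) of a member in the authors' deposited table was 0.975, for EDN1, above the 0.15 that the authors used to select genes. None of the members is among the 224 genes of the authors' deposited summary.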

How the data were processed

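RNA of 2 wild-type and 2 L243P samples was measured on Affymetrix Human Gene ST arrays. Per the authors' deposited description, Rosetta Resolver was used for RMA (background correction, quantile normalization, summary per probe set). The deposited values are linear normalized intensities that the authors rounded to whole numbers. RMA is also named in the submitters' processing notes. Its version and the build were not stated there. The authors' deposited table further holds a signed fold and a pfp (both treated as a score) and p-values. The series matrix holds the same intensities (100% of values equal). Array medians were 46 to 50. No read depth applies, and the number of arrays limits the precision.

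Names were brought up to date with a RefSeq table of GRCh38.p14 (18201 of 19607 names matched), used otherwise for gene order. The brightest probe set stood for a gene. The 27533 rows, of which 7978 were unnamed probe sets, were log2 transformed. They were tested with limma 3.58.1 (R 4.3.3, eBayes with trend and robust prior), with Benjamini-Hochberg adjustment and a threshold of 0.05. The fit was also run on simulated data with planted changes. All simulated rows had the same noise level, so that run cannot judge the trend and robust prior. Rounding left 836 rows with no spread in either group. The members, lists, markers and this fit were chosen with earlier results of these data known. Named genes were the members, called list genes or otherwise the 2 largest changes of a list, plus MME, FURIN, ANPEP and the 3 genes most like the brightest member. For neighbour subtraction, the median deviation of the 20 nearest genes on each side was subtracted in each array. Other alternatives concerned the prior, dim rows, centring, an offset of 16, the probe set rule, a replicate block and each array left out. The labels do not say that a replicate number marks a shared day across clones.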

Additional observations from a re-analysis of the deposited data

How the results depend on the processing

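No member of the endothelin system was called under any alternative, and the lowest adjusted p was 0.19 (ECE1, limma without the dimmer 50% of the rows, which leaves out EDN1, EDNRA and EDNRB). ECE1, EDN1 and EDNRB were lower in L243P under every alternative that kept them. With each array left out, the log2 change was -0.26 to -0.21 for ECE1 and -0.42 to -0.12 for EDN1. The groups of ECE1 and EDN1 did not overlap, so leaving out 1 array could not turn the sign of either. Leaving out arrays gave -0.24 to 0.16 for EDN2, -0.11 to 0.16 for EDN3, -0.044 to 0.24 for EDNRA, -0.18 to -0.058 for EDNRB, -0.047 to 0.089 for ECE2 and -0.16 to 0.038 for FURIN. Subtracting the neighbour shift turned the sign of EDN2 (0.044), FURIN (0.0097) and ARNT (-0.029). The number of genes called depended on the fit. It was 189 (84 higher, 105 lower) as reported, 440 (257 and 183) without the dimmer 50% of the rows, 503 (281 and 222) with arrays centred on their medians, and 119 with the neighbour shift subtracted (62 lower). In the first 2 of these alternatives 1 EDN1 transcription factor gene, HIF1A, was called. It was 0 with the default limma prior (2781 genes at an unadjusted p under 0.05), with the replicate block and without any single array (0 to 0), and the calls of PCSK2, ADM and GUCY1B1 were lost there, so the convertase and vasodilator lists held 0. With 1 array left out, the lone sample is assumed to vary like the other group. The deviations of same-numbered samples were negatively correlated (r = -0.16 across all rows and -0.29 in the brighter 50% of the rows), though not for each gene. A block with crossed numbers, chosen after seeing the data, called 0. The cause of these differences was not tested. Depth does not apply to arrays. Dim intensities limit what can be seen, most of all for EDNRA, EDNRB and EDN1.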
